A study of Mus musculus with 2 samples.

Results

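A set of 6 genes of elastic fibre assembly and collagen cross-linking was followed: the lysyl oxidases Lox, Loxl1 and Loxl2, the elastin gene Eln, the fibrillin-1 gene Fbn1 and the fibulin-5 gene Fbln5. They were chosen by name and make up 6 of the 22204 gene names listed in the count tables of 2 ovary sections. The sections came from C57BL6/J female mice and were profiled by Slide-seq, which captures the RNA of a cryosection on barcoded beads whose array positions are known. There was 1 young library (2 months, replicate 3) and 1 old library (about 14 months, replicate 1); the labels name no treatment. Per the labels' protocols, sagittal cryosections of 10 µm were cut from flash-frozen ovaries, 4 sections from 2 females per age cohort, at levels that showed several oocytes. With 1 library per age, the effects of age, animal, plane of section and library cannot be told apart. No test between ages can be made, and all intervals given are 95% intervals of counting error alone.

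Lysyl oxidases are secreted copper enzymes that oxidise lysines in collagen and elastin, the step from which covalent cross-links form. Elastic fibres are built when elastin is laid on microfibrils of fibrillin, with fibulins helping to place elastin and the enzymes together. In the ovary these proteins lie in the stroma, in vessel walls and in the follicle wall, which is broken down at ovulation and rebuilt afterwards.

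Of the 6 genes, 2 had a sequence in the RefSeq promoter table used, Fbn1 and Fbln5, both lower in the old section, and their first promoters are shown; Lox, Loxl1, Loxl2 and Eln had none there. Each holds 250 bases before to 50 bases after the RefSeq start, read 5′ to 3′ on the gene's own minus strand, at chr2:125506389-125506688 and chr12:101819070-101819369 of GRCm38.p6. Capitals mark GGGCGG or its complement CCGCCC, the core of the GC box.
Fbn1: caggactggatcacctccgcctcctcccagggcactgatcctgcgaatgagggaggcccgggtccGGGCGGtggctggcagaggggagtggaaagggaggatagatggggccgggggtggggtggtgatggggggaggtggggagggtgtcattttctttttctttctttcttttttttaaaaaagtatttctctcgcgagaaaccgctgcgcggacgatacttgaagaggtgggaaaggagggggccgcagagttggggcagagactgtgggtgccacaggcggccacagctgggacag
Fbln5: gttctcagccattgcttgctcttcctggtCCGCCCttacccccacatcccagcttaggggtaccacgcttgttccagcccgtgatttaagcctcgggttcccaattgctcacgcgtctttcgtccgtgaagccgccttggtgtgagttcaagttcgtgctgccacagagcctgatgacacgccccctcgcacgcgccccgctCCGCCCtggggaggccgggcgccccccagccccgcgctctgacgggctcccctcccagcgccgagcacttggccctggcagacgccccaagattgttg
The Fbn1 window held 14 CpG and 60.3% G or C, with 1 GC-box core, and the Fbln5 window held 24 CpG and 65.7% G or C, with 2. The median of the 32851 mouse promoters of this length was 7 CpG and 52.7% G or C, and 35.7% of them held a GC-box core on either strand. TATAAA was in neither window, against 13.6% of all promoters. CACGTG was also in neither, against 7.15% of all promoters. A second Fbln5 promoter, at chr12:101818435-101818734 and not shown, held 8 CpG and 48.7% G or C, with 0 matches to any of these motifs. The motifs do not overlap each other, and a match or its absence describes these letters only.

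The young section held 5158314 counts on 21403 beads and the old section 2348768 counts on 10267 beads, with medians of 153 and 125 counts per bead. No barcode was shared between them. Levels are given as CPM, the counts of a gene scaled to a common total of the section or region. A bead can hold parts of several cells, and fewer cells of a type cannot be told apart from less RNA per cell. CPM is not corrected for gene length, so each gene is compared only with itself. Of the lists that mark cell types, all 13 granulosa genes and all 9 smooth muscle genes had a count in each section. A count alone does not identify a tissue, and the sections are named as ovary by the protocols. The oviduct list was at 21 counts in the young library and 7 in the old one.

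In the mouse assembly GRCm38.p6, Lox lies on chromosome 18 (52516060 to 52529867), Loxl1 on chromosome 9 (58287723 to 58313212) and Loxl2 on chromosome 14 (69608692 to 69695834). Eln lies on chromosome 5 (134702595 to 134747368), Fbn1 on chromosome 2 (125300594 to 125506485) and Fbln5 on chromosome 12 (101746565 to 101819119). These are the spans of the whole genes, exons and introns included, from RefSeq.

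Across the whole sections, 4 of the 6 genes were at least 1.5-fold higher in the old section and 2 were at least 1.5-fold lower. Among the 12586 genes with at least 20 counts in 1 section, 22.6% were higher by this size and 25.4% lower, with a median old/young ratio of 0.988. The 3 lysyl oxidases together stood at 142 CPM in the young library and 537 CPM in the old one, a ratio of 3.79 (3.46 to 4.16). Eln, Fbn1 and Fbln5 together stood at 130 and 80.9 CPM, a ratio of 0.623 (0.527 to 0.733), but Eln went the other way from the remaining pair. The make-up of the sections moved with these ratios: the granulosa list stood at 11036 CPM (young) and 2927 CPM (old), a ratio of 0.265, the oocyte list at a ratio of 0.0919 and the theca list at 0.291. Ratios were 4.69 for surface epithelium genes, 1.67 for the blood endothelium list, 1.52 for the luteal list, 1.15 for the stromal list and 1.13 for the smooth muscle list. The part of this make-up in the ratios of the 6 genes was not tested.

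Lox, which acts on fibrillar collagen and elastin, had 48 counts (9.31 CPM) in the young and 203 counts (86.4 CPM) in the old section. The ratio was 9.29 (6.75 to 13), and 0.596% of measured genes had a higher one. Beads with a Lox count made up 0.215% of the young and 1.64% of the old beads. Loxl1, the family member best known for work on elastin, had 45 counts (8.72 CPM) and 80 counts (34.1 CPM), a ratio of 3.90 (2.68 to 5.76). Loxl2, known for cross-linking basement membrane collagen IV, had 638 counts (124 CPM) and 978 counts (416 CPM). Its ratio was 3.37 (3.04 to 3.73), beads with a count went from 2.74% to 6.75%, and the highest count on 1 bead was 3 in the young library and 10 in the old one.

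Eln, the elastic core of the fibre, had 32 counts (6.20 CPM) in the young and 51 counts (21.7 CPM) in the old section, a ratio of 3.50 (2.21 to 5.63). Fbn1, the main microfibril protein, had 575 counts (111 CPM) and 124 counts (52.8 CPM), a ratio of 0.474 (0.387 to 0.576). Fbln5, which binds elastin and LOXL1, had 63 counts (12.2 CPM) and 15 counts (6.39 CPM), a ratio of 0.523 (0.276 to 0.929). The latter 2 ratios were less extreme among all genes: 13.4% of measured genes had a lower ratio than Fbn1 and 16.2% a lower one than Fbln5.

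**Figure D1:**
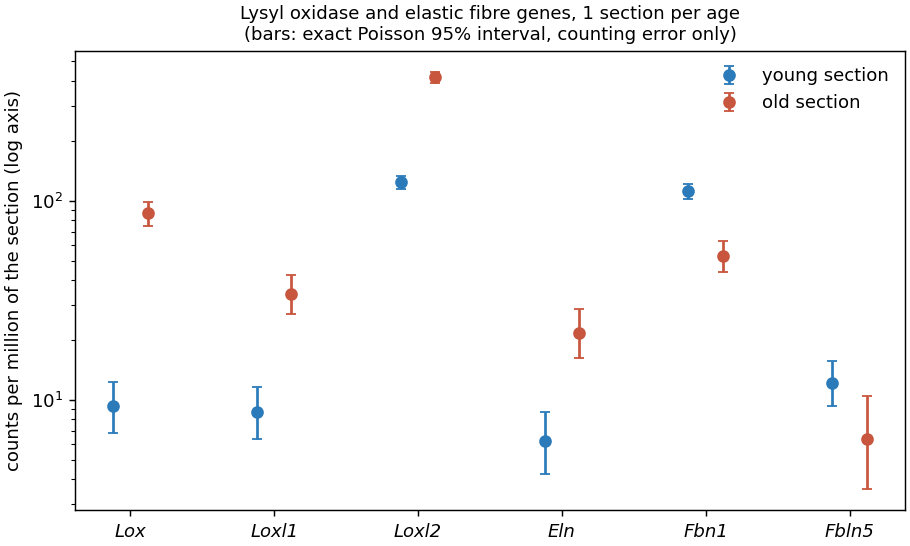
Level of each of the 6 genes in CPM (log axis) in the young section (blue) and the old section (red), 1 library each, with exact Poisson 95% intervals for counting error. Lox, Loxl1, Loxl2 and Eln are higher in the old section, Lox most (9.31 to 86.4 CPM), and Fbn1 and Fbln5 are lower.

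Positions were read in bins, squares with a side of 5 bead spacings that held 500 counts or more; the young section had 1338 of them and the old section 895. Splitting each section into 4 quadrants at the median bead position, Loxl2 ranged from 104 to 136 CPM in the young section. In the old section it stood at 139 and 173 CPM in the quadrants of high y and at 575 and 651 CPM in those of low y. Old Lox followed the same split, with 57.1 and 17.2 CPM at high y and 106 and 158 CPM at low y. Old Fbn1 was even, from 46.4 to 62.8 CPM. Moran's I, the likeness of a bin to its 8 neighbours after thinning each bin to 500 counts, was 0.131 for Loxl2 in the old section (0.0746 to 0.209 over 50 draws) and 0.0142 in the young. It was 0.0460 for Lox in the old section (-0.00657 to 0.108, a range that holds 0), and between -0.00342 and 0.0223 for each other gene and section where it could be computed (Eln in the young section had too few counts).

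Most Loxl2 of the old section lay in patches rich in genes of ovulation. The list of such genes holds Adamts1, a protease of the follicle wall and cumulus matrix, with Rgcc, Edn2 and others induced around ovulation. It stood at 93.6 CPM in the young library and 1900 CPM in the old one, where Adamts1 gave 80.1% of its counts. In the fifth of old bins with the highest share of this list (179 bins), Loxl2 stood at 901 CPM, in the bins adjoining them at 304 CPM and elsewhere at 155 CPM. The ratio of rich bins to all others was 4.98 (4.33 to 5.75), and these bins held 71.0% of the Loxl2 counts on 33.0% of all counts. Of all genes measured there, 13.8% were at least 1.5-fold higher in the rich bins. The rich bins were also deeper, with a median of 4004 counts against 1888, and the ratio was 2.54 among bins with at least 3000 counts. With the list taken without Adamts1 it was 3.10. The part of depth in this result was not tested further. In the young section only 2 genes of the list reached 20 counts, and Rgcc gave 67.9% of its counts, so the rich bins there are marked differently. Young Loxl2 stood at 124 CPM (141 counts) in those rich bins and at 124 CPM (492 counts) in the others.

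**Figure D2:**
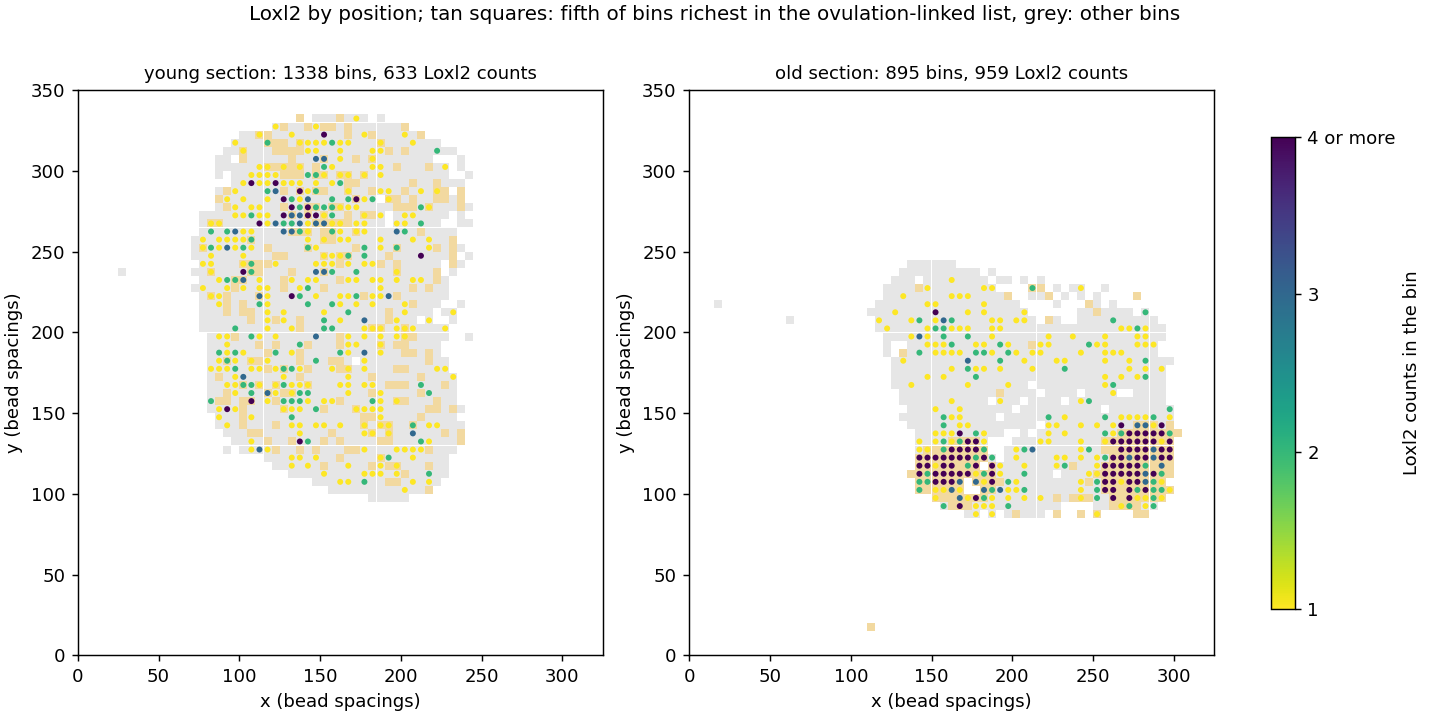
Loxl2 counts per bin by position (axes in bead spacings, dots coloured from 1 to 4 or more counts) over all bins of each section, tan where a bin belongs to the fifth richest in ovulation-linked genes. The 633 counts of the young bins are spread over the section with a denser spot at high y, while the 959 of the old bins are dense in a pair of tan patches at low y. Counts are not scaled for depth. The young quadrant of low x and high y held 44.2% of Loxl2 counts but stood at 136 CPM, beside 133 CPM at low x and low y.

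The rich bins formed 2 large patches in the old section, of 69 and 88 adjoining bins, which held 38.5% and 49.2% of them. Lox formed a rim around both. Over the 2 patches together, Lox stood at 51.8 CPM (21 counts) more than 2 bins inside the border and at 157 CPM (52 counts) in the outermost 2 bins inside. It then stood at 397 CPM (77 counts) in the 2 bins just outside, and at 45.1, 31.1 and 34.7 CPM from 2 to 4, 4 to 8 and over 8 bins away. Loxl2 instead was highest inside, at 968 and 858 CPM, with 391 CPM just outside and 175, 127 and 155 CPM farther off. The rim was noticed on the map of Lox, so these rings are a description. Bins had a median of 4748.5 counts deep inside, 2228 just outside and 1912 over 8 bins away.

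The rim was present at each patch on its own. Around the first patch Lox stood at 58.1 CPM deep inside, 430 CPM just outside and 39.4 CPM from 2 to 4 bins away. Around the second patch the values were 49.2, 372 and 52.9 CPM. Taking the 2 bins on either side as the border, Lox was 4.73-fold (2.97 to 7.90) higher there than deep inside the patches and 6.96-fold (4.96 to 9.91) higher than in the bins beyond. The latter ratio was 14.3 around the first patch alone and 3.69 around the second. Among all genes measured in these regions, 15.7% were at least 1.5-fold higher at the border than inside and 12.9% higher than beyond.

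Fbn1 was also higher at the border, at 91.2 CPM (48 counts) against 17.3 CPM (7 counts) deep inside, a ratio of 5.28 (2.37 to 13.8), and against 46.2 CPM beyond, a ratio of 1.97 (1.33 to 2.92). Its highest ring was just outside the second patch, at 204 CPM, on 23 counts, and just inside the border of the first patch, at 110 CPM on 14 counts. Loxl1 stood at 34.2 CPM (18 counts) at the border, 40.4 CPM beyond and 9.88 CPM (4 counts) deep inside, with a border-to-inside ratio of 3.46 (1.14 to 14.1). Against the bins beyond, its border ratio was 1.71 (0.726 to 3.73) around the first patch and 0.427 (0.170 to 0.947) around the second. Eln had 2 counts deep inside, 7 at the border and 40 beyond, or 4.94, 13.3 and 29.4 CPM. The list of smooth muscle genes, the contractile genes of vessel walls and of the outer follicle layer, was highest in the ring just outside as well, at 3306 CPM against 425 CPM deep inside and 1364 CPM over 8 bins away. The stromal list stood at 1751, 230 and 950 CPM in the same 3 regions. Steroid enzyme genes stood at 16454, 17041 and 34820 CPM.

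**Figure D3:**
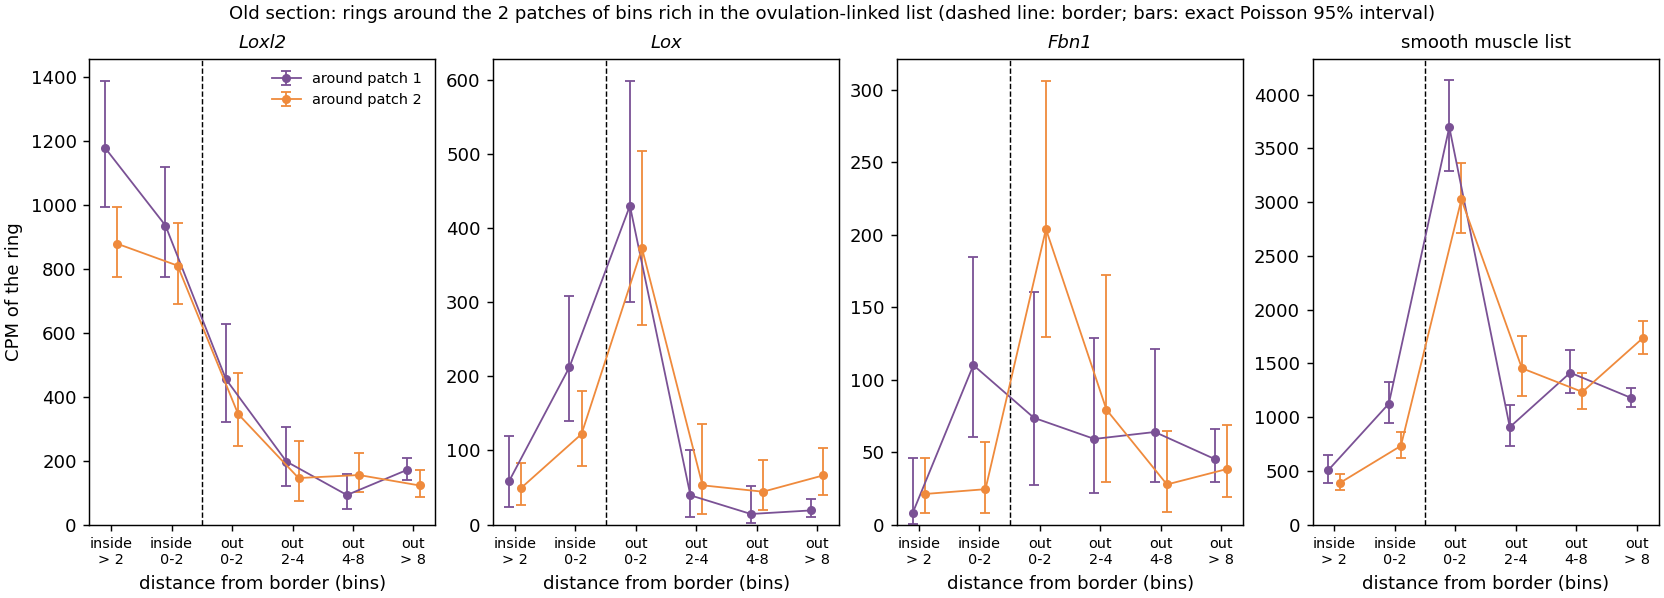
CPM of Loxl2, Lox, Fbn1 and the smooth muscle list in rings around each of the 2 patches of the old section, from deep inside to over 8 bins outside (dashed line, border; bars, exact Poisson 95% interval). Loxl2 is high inside both patches and low from 2 bins outside, Lox peaks just outside both patches at 430 and 372 CPM, as does the smooth muscle list, and Fbn1 peaks there at the second patch only.

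Smooth muscle-rich bins of the old section were high in Lox at the rim of the patches. In the fifth of old bins richest in smooth muscle genes Lox stood at 219 CPM (82 counts) against 60.4 CPM (116 counts) in all others, a ratio of 3.63 (2.70 to 4.86), where 14.2% of genes were at least 1.5-fold higher. It was 2.32 without the quadrant of low x and low y and 5.83 among bins with at least 3000 counts. Lox was also high in other regions: 182 against 60.7 CPM in bins of the Pdpn-led lymphatic list (3.00, 2.24 to 4.01), 169 against 59.9 CPM in red blood cell-rich bins (2.82, 2.11 to 3.76) and 177 against 70.6 CPM in stromal bins (interval of the ratio 1.82 to 3.42). In these regions 10.6%, 6.76% and 16.4% of genes were at least 1.5-fold higher. Lox was low in bins rich in steroid enzymes, at 29.2 CPM (13 counts) against 100 CPM (185 counts). In luteal bins it stood at 31.1 CPM (14 counts) against 99.8 CPM (184 counts). There 25.8% and 25.9% of genes were at least 1.5-fold lower. Smooth muscle-rich bins within 2 bins of a patch border (47 bins) stood at 530 CPM (71 counts). The other 132 smooth muscle-rich bins stood at 45.9 CPM (11 counts), near the 38.0 CPM of the remaining bins away from the border, a ratio of 1.21 (0.572 to 2.32). Bins near the border that were not rich in smooth muscle genes stood at 148 CPM. The bins away from the border include the 78 deep inside the patches, where Lox stood at 51.8 CPM (21 counts). Over all bins away from the border, a higher Lox level in smooth muscle-rich bins was not detectable at this depth.

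Loxl1 was high in smooth muscle-rich bins that lay away from the patch border. These bins stood at 87.5 CPM (21 counts) against 24.9 CPM (38 counts) in other bins away from the border, a ratio of 3.52 (1.96 to 6.15). The bins away from the border include the 78 deep inside the patches, where Loxl1 stood at 9.88 CPM (4 counts). Near the border the values were 59.8 CPM (8 counts) and 25.5 CPM (10 counts), a ratio of 2.35 (0.805 to 6.60). Fbn1 was higher in smooth muscle-rich bins in both places, 209 against 51.0 CPM near the border and 75.0 against 34.0 CPM elsewhere, with ratios of 4.11 (2.23 to 7.69) and 2.20 (1.21 to 3.83). Smooth muscle-rich bins shared 35.8% of their number with bins rich in stromal genes and 31.3% with bins rich in blood endothelial genes, so the 3 sets are not separate tissues.

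**Figure D4:**
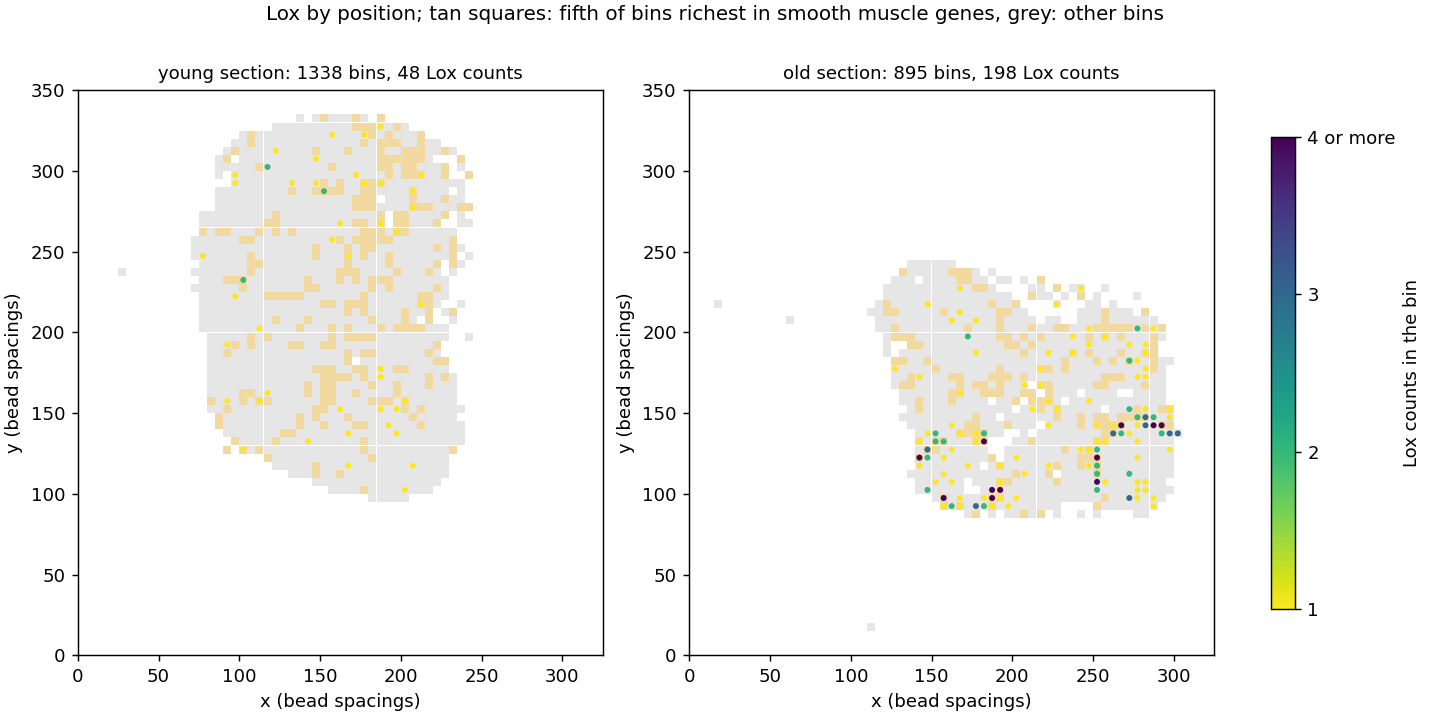
Lox counts per bin by position, as on the Loxl2 map, with tan bins the fifth richest in smooth muscle genes. The young section has 48 scattered counts, and the 198 of the old section trace the outlines of the patches at low y, where single bins reach 4 or more counts.

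Away from the patches and their borders Loxl2 was near its young level, while Lox, Loxl1 and Eln were still higher and Fbn1 lower. In the 661 old bins more than 2 bins outside the patches Loxl2 stood at 151 CPM, against 124 CPM in all young bins, a ratio of 1.22 (1.03 to 1.43). Lox stood at 35.2 against 9.42 CPM, a ratio of 3.74 (2.45 to 5.70). Loxl1 had a ratio of 4.57 (3.02 to 6.93), Eln of 4.82 (2.94 to 7.97), Fbn1 of 0.417 (0.316 to 0.541) and Fbln5 of 0.663 (0.315 to 1.27). In this comparison 23.1% of genes were at least 1.5-fold higher and 24.8% lower.

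In the young section Lox, Loxl1, Loxl2 and Eln were low in bins rich in granulosa genes, which mark the cells that nourish the oocyte. Fbln5 was lower there by a smaller margin, at 8.90 CPM (13 counts) against 13.5 CPM (49 counts). Stromal bins were high in Eln and Fbln5, and by less in Lox and Loxl1, the latter at 14.8 CPM (10 counts) against 7.92 CPM (35 counts). Granulosa-rich bins (268 bins, 28.7% of counts) had 54.8 CPM of Loxl2 against 152 CPM in others, a ratio of 0.360 (0.281 to 0.456). The ratios were 0.289 (0.0894 to 0.729) for Lox, 0.243 (0.0631 to 0.670) for Loxl1 and 0.0829 (0.00203 to 0.499) for Eln, the last from 1 count against 30. Of all genes, 24.7% were at least 1.5-fold lower there. Fbln5 had its highest ratio in smooth muscle-rich bins: 40.3 CPM (28 counts) against 7.73 CPM (34 counts), a ratio of 5.22 (3.05 to 8.86), so that 45.2% of its counts lay on 13.6% of all counts. Blood endothelium-rich bins had a Fbln5 ratio of 3.46 (1.97 to 5.94) and stromal bins of 2.47 (1.32 to 4.40), and bins rich in luteal genes had the lowest, 0.242 (0.0484 to 0.741), where 26.7% of genes were at least 1.5-fold lower.

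Young Lox was likewise highest in smooth muscle-rich bins, at 23.0 CPM (16 counts) against 7.27 CPM (32 counts), a ratio of 3.17 (1.62 to 5.94) that was 1.29 without the quadrant of low x and high y. Macrophage-rich bins followed at 2.19 (1.08 to 4.18) and stromal bins at 1.94 (0.893 to 3.89). Young Eln was highest in stromal bins, with 16.3 against 4.53 CPM and a ratio of 3.59 (1.55 to 7.86), then in bins rich in blood endothelium at 2.79 (1.17 to 6.20), which turned to 0.683 without the quadrant of low x and low y, and in smooth muscle at 2.20 (0.852 to 5.10). Young Loxl1 was highest in red blood cell-rich bins at 2.74 (1.37 to 5.25), macrophage-rich bins at 2.40 (1.18 to 4.64) and luteal bins at 1.93 (0.930 to 3.78), the last turning to 0.685 without the quadrant of low x and high y. Fbn1 was more even, with its highest ratios at 1.54 (1.25 to 1.88) in red blood cell-rich, 1.50 (1.21 to 1.84) in blood endothelium-rich and 1.40 (1.12 to 1.73) in smooth muscle-rich bins, and its lowest at 0.741 (0.565 to 0.958) in bins rich in steroid enzymes. Across all genes, 11.9% were at least 1.5-fold higher in smooth muscle-rich bins, 12.5% in stromal, 10.2% in blood endothelium-rich, 12.4% in macrophage-rich and 7.72% in red blood cell-rich bins.

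Young Loxl2 was highest where luteal genes were. Luteal-rich bins, marked by Sfrp4, Ptgfr and Prlr, stood at 230 CPM (204 counts) against 102 CPM (429 counts), a ratio of 2.26 (1.90 to 2.67), with 13% of genes at least 1.5-fold higher there. Of the genes, 10.4% were so in bins rich in steroid enzymes. Smooth muscle-rich bins followed at 1.82 (1.49 to 2.19) and bins rich in steroid enzymes at 1.65 (1.36 to 1.99). In the old section the luteal ratio was 0.393, where 25.9% of genes were at least 1.5-fold lower, and leaving out the bins rich in ovulation-linked genes it was 1.06. Inside luteal-rich bins Loxl2 stood at 230 CPM in the young library and 187 CPM in the old one, an old/young ratio of 0.810 (0.621 to 1.05). In all other bins the ratio was 4.65 (4.14 to 5.24), where 23.6% of genes were at least 1.5-fold higher. Of the 179 old bins rich in ovulation-linked genes, only 4 were luteal-rich. Without these 179 bins, the other old bins stood at 178 CPM (194 counts), against 102 CPM in the young ones.

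Other regions of the old section separated the genes further. Eln was nearly missing from the bins rich in ovulation-linked genes, with 3 counts (3.97 CPM) against 46 (29.9 CPM), a ratio of 0.133 (0.0264 to 0.413), where 26.2% of genes were at least 1.5-fold lower. It was highest in bins rich in surface epithelium genes at 2.40 (1.17 to 4.64) and macrophage genes at 2.37 (1.15 to 4.57), then pericyte genes at 1.92 (0.955 to 3.66, and 0.813 among bins with at least 3000 counts), where 18.6%, 14.9% and 11.8% of genes were at least 1.5-fold higher. Without the bins rich in ovulation-linked genes, the Eln ratios were 1.75 (0.846 to 3.42), 1.63 (0.785 to 3.17) and 1.51 (0.745 to 2.91) in the same order. Each of these intervals reached to both sides of an even level. Loxl1 stood at 77.6 CPM in smooth muscle-rich bins against 25 CPM, a ratio of 3.10 (1.89 to 5.02) that was 1.70 with bins of 8 spacings, followed by blood endothelium at 2.30 (1.34 to 3.84), where 13.2% of genes were at least 1.5-fold higher, and surface epithelium at 2.18 (1.23 to 3.71). Fbn1 was at 123 against 37.5 CPM in smooth muscle-rich bins, a ratio of 3.28 (2.22 to 4.82) that was 1.85 with bins of 8 spacings. Fbn1 thereby came nearest to its young level there, with an old/young ratio of 0.838 (0.578 to 1.20) inside smooth muscle-rich bins. In all other bins the ratio was 0.356 (0.274 to 0.457), where 26.6% of genes were at least 1.5-fold lower. Old smooth muscle-rich bins stood at 209 CPM (28 counts) near the patch border but at 75.0 CPM (18 counts) elsewhere, beside 147 CPM in the young ones. The nearness to the young level was thus not seen away from the border. Loxl2 was lowest in macrophage-rich bins at 0.353 (0.259 to 0.471), where 20.8% of genes were at least 1.5-fold lower, but it was 0.883 (0.635 to 1.21) without the bins rich in ovulation-linked genes. Fbln5 had too few counts in the old bins to be placed.

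**Figure D5:**
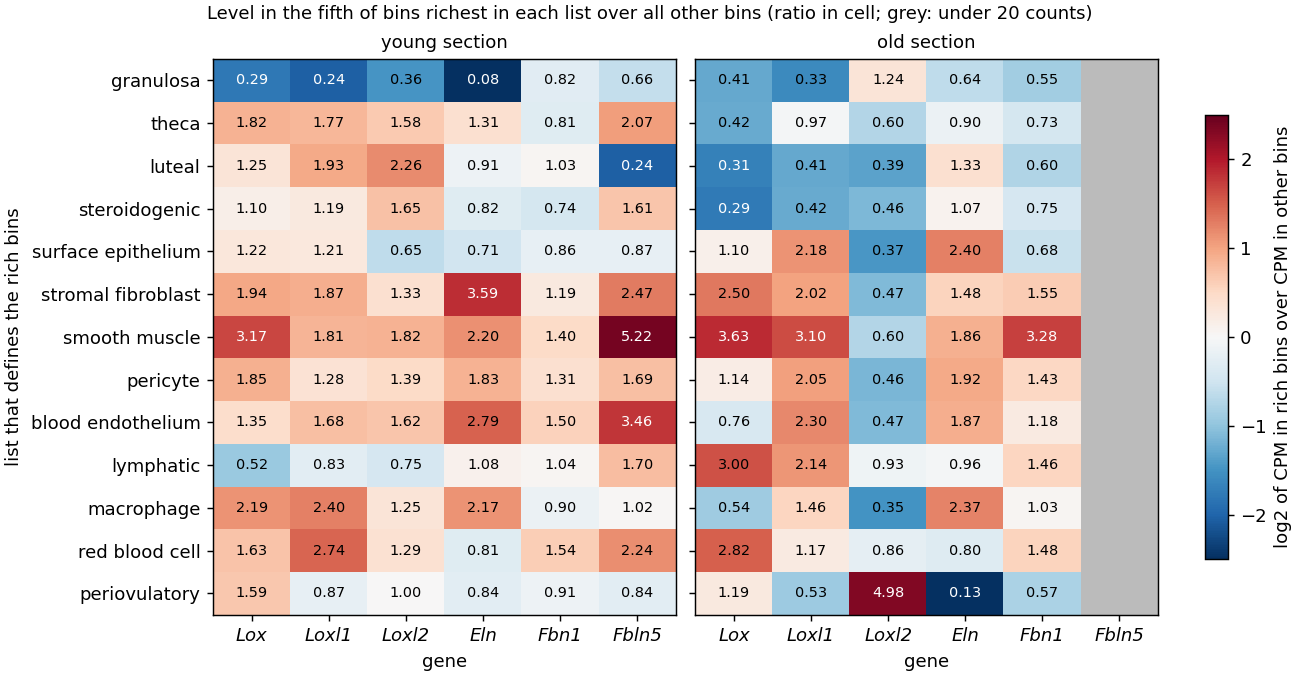
CPM of each gene in the fifth of bins richest in each cell type or state list over CPM in all other bins, in the young (left) and old (right) section; colour is the log2 of the ratio printed in each cell, and grey cells had under 20 counts. Fbln5 and Lox in smooth muscle-rich young bins reach 5.22 and 3.17, and Loxl2 in old bins rich in ovulation-linked genes reaches 4.98.

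Toward the rim of the section Loxl2 ran in opposite directions. In the 334 young bins nearest the edge it stood at 99.6 CPM (85 counts) against 205 CPM (222 counts) in the 334 innermost, a ratio of 0.486 (0.374 to 0.627). In the old section the values over 224 bins each were 399 CPM (182 counts) and 175 CPM (81 counts), a ratio of 2.28 (1.75 to 3.00). Of the old outer bins 68 were rich in ovulation-linked genes and of the inner bins 4; without them the ratio was 0.900 (0.594 to 1.34). By edge position, 12.5% of genes were at least 1.5-fold lower at the outside of the young section and 18.6% higher at the outside of the old one.

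The genes that most resembled each of the 6 in position were found over larger bins of 10 spacings with at least 2000 counts, as a description. In the old section, over 235 bins and 2609 candidate genes, Loxl2 was most like Adamts1 (Pearson r 0.682), the chromatin remodeller gene Smarca1 (0.660) and Vcan, the versican that ADAMTS1 cleaves (0.653). The bins share their depth, and Loxl2 correlated with total counts at 0.559. Old Lox was most like Timp1, an inhibitor of matrix proteases (0.473), the proprotein convertase Pcsk5 (0.453) and Akr1b8 (0.448). Timp1 stood at 3407 CPM deep inside the patches, 3729 CPM just outside and 1028 CPM over 8 bins away, so it was high on both sides of the border. In the young section, over 346 bins, Loxl2 was most like Malat1 (0.435), the steroid enzyme gene Cyp11a1 (0.423) and Aebp1, a collagen-binding protein (0.384). The best likeness of the other genes was between 0.247 and 0.322 and was not read.

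Other genes of fibre assembly and lysyl oxidase activation did not move as one group. Of 29 listed, 22 had at least 20 counts, of which 8 (36.4%) were at least 1.5-fold higher in the old section and 6 (27.3%) lower, beside 22.6% and 25.4% of all genes, with a median ratio of 1.18. Higher were Efemp1, a fibulin, at 4.50 (3.67 to 5.53), Ltbp2, a fibrillin-binding protein, at 3.43 (2.16 to 5.53), Fbln2 at 3.25 (1.95 to 5.51) and Pcolce, which enhances procollagen processing, at 2.99 (2.71 to 3.30). Ltbp1, which ties latent TGF-beta to microfibrils, had a ratio of 2.10 (1.94 to 2.26). Lower were the microfibril genes Fbn2 at 0.290 (0.228 to 0.364) and Mfap2 at 0.416 (0.375 to 0.461), with Emilin2 at 0.532 (0.367 to 0.756) and Adamts17 at 0.200 (0.0228 to 0.812) on 22 and 2 counts. Outside the naming rule, the microfibril genes Mfap4 and Mfap5 lay between the size limits at 1.12 (0.689 to 1.78) and 1.14 (0.955 to 1.36). The remaining family members were Loxl3, at 524 and 203 counts and a ratio of 0.851 (0.720 to 1.00), and Loxl4, at 3 and 4 counts.

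Matrix proteins on which lysyl oxidases act, or which accompany them, were also listed. Of 13 measured, 7 (53.8%) passed the 1.5-fold size upwards and 1 (7.69%) downwards, beside 22.6% and 25.4% of all genes, and the median ratio was 1.67 beside 0.988. The basement membrane genes Col4a1 and Col4a2 had ratios of 3.97 (3.62 to 4.35) and 2.97 (2.60 to 3.41), Col5a2 2.65 (2.27 to 3.11) and the collagen-binding Sparc 5.03 (4.83 to 5.24). The fibrillar collagen genes did not share a direction: outside the naming rule, Col1a1 stood at 2.46 (2.23 to 2.71), Col3a1 at 1.90 (1.80 to 2.01) and Col5a1 at 1.67 (1.36 to 2.05), and Col1a2 at 0.722 (0.687 to 0.760). The other lowest ratios were those of Postn at 0.359 (0.230 to 0.542) and the small proteoglycans Dcn at 0.815 (0.728 to 0.912) and Lum at 0.819 (0.673 to 0.993). Of 9 measured elastin-degrading proteases and their inhibitors 2 were higher, Timp1 at 8.36 (7.87 to 8.88) and the cathepsin Ctsl at 3.09 (2.95 to 3.24), and 0 lower, with a median of 1.26; the share of 22.2% is that of all genes, 22.6%. The metalloproteinase genes Mmp12 (0.702) and Mmp14 (0.889), Ctss (1.01), Ctsk (1.46), Timp2 (1.08) and Timp3 (1.36) had ratios between the size limits. Of 13 regulators of lysyl oxidase transcription in the TGF-beta pathway and beside it, 4 (30.8%) were higher and 1 (7.69%) lower, beside 22.6% and 25.4% of all genes, with a median of 1.22. Tgfb1 stood at 2.70 (1.87 to 3.90), its receptor Tgfbr2 at 2.25 (1.64 to 3.08) and Tgfb3 at 1.68 (1.37 to 2.06). Tgfb2 was the 1 lower gene, at 0.179 (0.0872 to 0.331). Ccn2 stood at 0.691 (0.607 to 0.783), Smad3 at 0.804 (0.633 to 1.02), Tgfbr3 at 1.11 (0.943 to 1.30) and Tgfbr1 at 1.31 (1.16 to 1.48).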

How the data were processed

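Slide-seq counts of 1 young and 1 old ovary section were analysed. The deposited tables hold whole-number counts per gene and bead, made by the authors, and the position of each bead; every listed bead has at least 10 counts and every listed gene at least 1. Per the submitters' processing notes the build was mm10. The aligner, the annotation, the length unit of positions, and the nature of a count (molecule or read) are not stated in the sources at hand. Of 22204 gene names, 18804 matched the GRCm38.p6 RefSeq table, among them all 6 genes.

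Counts were summed over all beads with counts and divided by the section total (CPM). Levels have exact Poisson intervals, and ratios exact conditional binomial (Clopper-Pearson) intervals at 95%. Intervals cover counting error only, since each age is 1 library. A ratio of at least 1.5 or at most its inverse, with at least 20 counts in 1 section, was counted as higher or lower. Bead spacing is the median distance to the nearest bead with counts. Bins of 5 spacings with at least 500 counts were ranked by the share of each marker list, none of which holds any of the 6 genes. Patches are groups of at least 20 adjoining rich bins of the old section. The patches, their rings and the border were defined after seeing the data. Doublets do not apply to beads.

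The genes named are the 6, the 4 highest, 4 lowest and 2 most abundant of each pathway list, and the 3 genes most alike in position, with other names marked. Regions were drawn mainly from the 3 highest and the lowest per gene and section, and not all of these are printed. The genes and lists were chosen with earlier results of these data known. The interval step was tested on simulated counts of 12586 genes, of which 95.6% had an interval holding the true ratio; this checks the calculation only. Alternatives were deeper beads, other totals and scaling, equal bin weight, other bin sizes, depths, list shares and thinning, and leaving out quadrants. Python 3.11.15, numpy 2.4.6, pandas 2.3.3, scipy 1.17.1 and matplotlib 3.10.9 were used.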

Additional observations from a re-analysis of the deposited data

Results flagged for a closer look

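Loxl2 and Lox stood on opposite sides of an even distribution in the 2 sections for several regions, and this difference between sections was not tested. For Loxl2 the ratio of rich bins to other bins was 2.26 (young) and 0.393 (old) for luteal genes, 1.65 and 0.457 for steroid enzyme genes, and 1.58 and 0.598 for theca genes. It was 1.82 and 0.598 for smooth muscle genes and 1.62 and 0.467 for blood endothelial genes. Without the old bins rich in ovulation-linked genes, the old values were 1.06, 1.26, 0.970, 1.43 and 1.07 in the same order. For Lox the ratio in macrophage-rich bins was 2.19 (young) and 0.537 (old), and 0.563 without those bins. The outer/inner ratio of Loxl2 was 2.28 (old) and 0.486 (young), and 0.900 in the old one without those bins.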

How the results depend on the processing

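Of 84 alternative values of the old/young ratios, 75 stayed within the counting interval of the reported value and 9 did not, with no change of direction. Lox was 6.74 with bins weighted equally and 3.74 away from the patches. Loxl2 was 3.91 on beads with at least 200 counts, 2.08 with bins weighted equally and 1.22 away from the patches. It was 3.83, 2.61, 4.01 and 2.86 without the old quadrants of high x and high y, high x and low y, low x and high y, and low x and low y. At the patch border, 28 of 30 values stayed within the interval; Lox against the bins beyond was 14.3 around the first patch alone and 3.69 around the second. With fewer outermost and innermost bins (10% each), the outer/inner ratio reversed for Loxl1 in the young section (1.12) and Fbn1 in the old section (1.02), and it was 1.54 for young Fbn1 and 3.93 for old Loxl2, which was 1.72 with more bins in each set. Without bins rich in ovulation-linked genes, old Loxl2 reversed to 0.900. At a 2-fold size, 3 instead of 6 fibre assembly genes were lower. Of 482 values by region, 429 stayed within the interval, 49 moved and 4 reversed: Loxl1 in luteal bins (0.685) without the young quadrant of low x and high y, Eln in blood endothelium-rich bins (0.683) without the young quadrant of low x and low y, Eln in pericyte-rich bins (0.813) with at least 3000 counts, and Loxl2 in bins of the Cd34-led list (0.982) without bins rich in ovulation-linked genes. Where no value above shows it, the cause was not tested. No paired analysis was possible because each age had 1 library and the replicate numbers differ. Depth limits Fbln5, Eln, Loxl1 and young Lox most, each with 15 to 80 counts in a section.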
